A study of Mus musculus with 8 samples.

Results

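The small leucine-rich proteoglycans are described here through 10 genes, Nepn, Dcn, Bgn, Aspn, Fmod, Lum, Prelp, Kera, Epyc and Ogn. The samples are labelled dorsal pancreatic epithelium and came from mouse embryos with Sox9 intact or conditionally deleted. The 10 genes were found by the gene names of the non-control probes in the scanner files, which gave 14 probes. All 10 genes had at least 1 probe that passed the filter on dim signals, and they stand among 18506 genes tested of 27828 names on the array. The family was chosen by a measured value of these same arrays, the fall of Nepn in the mutant samples. The differences of all 10 genes between the genotypes are therefore given as a description, and no p-value is printed for them.

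Small leucine-rich proteoglycans are secreted proteins of the extracellular matrix. Their core is a curved stack of leucine-rich repeats, and most carry chondroitin, dermatan or keratan sulfate chains. They bind collagen fibrils and set fibril diameter and spacing, and several bind growth factors of the TGF-beta family or cell surface receptors. Fibroblasts and other mesenchymal cells are the main source of most of them. Nepn encodes nephrocan, a family member first described in mouse kidney and reported as an inhibitor of TGF-beta signalling. Sox9 is a transcription factor of pancreatic progenitors and of cartilage, among other tissues.

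The wild-type group (WT) held 4 arrays from Sox9fl/fl embryos, and the mutant group (MUT) held 4 arrays from Sox9fl/fl littermates that also carried the Pdx1-Cre transgene, which deletes floxed Sox9 in Pdx1-expressing cells of the developing pancreas. Both groups carried the floxed Sox9 alleles and only the mutant group carried Cre, so that loss of Sox9 and Cre itself cannot be told apart. Embryos were at e12.5, the floxed line was on a mixed FVB/N and C57Bl/6J background and the Cre line on C57Bl/6J. Each sample was RNA pooled from 3 microdissected dorsal pancreata, labelled with Cy3 on an Agilent array of its own. The labels do not say whether the pools came from separate litters, so that p-values measure only the spread between these samples. The design text of the series gives a lower number of biological replicates than the 4 arrays per genotype.

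Values are log2 signals after subtraction of the 75th percentile of the array, so that 0 is the level of that percentile and levels of different probes are not compared. Sox9 itself was at 3.01, 2.13, 1.82 and 2.19 on the wild-type arrays and at -0.61, -1.79, -0.01 and 0.77 on the mutant arrays, always listed here from replicate 1 to 4, and fell by 2.70 (SE 0.517, adjusted p = 0.0252 in limma). Spots well above background made up 59.4% to 77.7% of each array. Each of 3 slides carried both genotypes. Wild-type replicate 2 and mutant replicate 3 shared slide 1. Slide 2 carried mutant replicates 1 and 4 with wild-type replicate 3, and slide 3 carried mutant replicate 2 with wild-type replicates 1 and 4. The Y-linked gene Ddx3y was at -6.85, -4.86, -0.82 and -7.44 in wild-type and at 0.11, -0.85, -0.92 and -1.37 in mutant samples, so that the sex of the embryos was not balanced between the groups. The part of embryo sex in the results was not tested.

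The sequences below are those the Nepn, Ogn and Prelp results turn on. For the 4 probes the first 30 of 60 bases are shown, from the scanner files. On mouse assembly mm8 they lie at chr10:52092719-52092778, plus strand (Nepn), chr13:49636117-49636176, plus strand (Ogn), chr1:135726768-135726827, minus strand (Prelp, brighter probe), and chr1:135731455-135731514, minus strand (Prelp, dimmer probe). The 2 Prelp probes are shown because they gave opposite signs.
Nepn probe: catcagactcaacatggatgacgacgatga
Ogn probe: cattaaagcatctgtgaactgtaaggccac
Prelp brighter probe: ctgtacatcttatctattctccaaaagacc
Prelp dimmer probe: ttacctttacttgcagaacaacttcatcac

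The promoter of Nepn, which had the largest difference among the 10 members, is set beside that of Ogn, the member furthest in the other direction, because the factor deleted here binds DNA. Both are the 250 bases before the annotated start from RefSeq, assembly GRCm38.p6, at chr10:52391358-52391607 and chr13:49607765-49608014, both plus strand. Capitals mark matches to the binding sequence shared by SOX factors, taken as 8 words of 7 letters. Each word has A or T in both of its opening places, then CAA, then A or T, then G, and was searched on both strands with overlaps counted.
Nepn promoter: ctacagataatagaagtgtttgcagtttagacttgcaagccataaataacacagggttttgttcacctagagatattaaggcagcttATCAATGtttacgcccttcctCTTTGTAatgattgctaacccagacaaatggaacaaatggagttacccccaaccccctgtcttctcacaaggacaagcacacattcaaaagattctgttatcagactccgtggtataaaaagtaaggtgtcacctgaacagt
Ogn promoter: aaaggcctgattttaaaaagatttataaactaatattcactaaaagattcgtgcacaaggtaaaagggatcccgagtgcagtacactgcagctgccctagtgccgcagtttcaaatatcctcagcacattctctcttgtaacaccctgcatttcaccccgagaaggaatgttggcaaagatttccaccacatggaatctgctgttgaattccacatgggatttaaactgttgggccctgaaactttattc

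The Nepn window held 2 matches, beginning at positions -163 and -142 from the start, and the Ogn window held 0. The RefSeq table held 8 of the 10 members, with 9 windows in all. Besides Nepn, the 2 windows of Epyc held 2 and 3 matches, those of Bgn, Aspn and Kera held 1 each, and those of Fmod and Prelp held 0. Among all 32851 windows of this length, 21.8% held at least 1 match and 3.14% held at least 2. A match describes letters only and is no measurement of binding.

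Nepn was the member with the largest difference between genotypes, and its fall is the value by which the family was chosen. Its processed signal was 277.9, 995.4, 1380 and 711.4 on the wild-type arrays and 32.0, 3.67, 35.2 and 79.2 on the mutant arrays. Every wild-type array lay above every mutant array, and mutant replicate 2 was the lowest of all and the one array on which the probe was not well above background. On the log2 scale the values were -0.42, 0.68, 1.39 and 0.15 in wild-type and -4.26, -7.15, -3.55 and -2.98 in mutant samples. The means were 0.45 ± 0.77 (SD, n = 4) and -4.49 ± 1.85 (SD, n = 4). The log2 difference was -4.94 (SE 0.861), which is 30.6-fold lower. Mutant replicate 2 carried part of this size, and without it the difference was -4.05. Within slides 1, 2 and 3 it was -4.23, -5.01 and -7.02. The value of slide 3 rests on mutant replicate 2 as its only mutant array, so that its size is uncertain.

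The size of the Nepn difference differed with the treatment of background, and the mutant signals were dim. In the authors' deposited value table the log2 difference was -3.05, and with a normexp background correction it was -2.85. On leaving out single arrays it ran from -5.44 to -4.05. Within the mutant group the order of the arrays by Nepn, from replicate 2 through 1 and 3 to 4, was the order by Sox9. It was not particular to these genes. The epithelium marker Grhl2 and the pancreas progenitor genes Nkx2-2 and Foxa2 had the same mutant order. Cdh1 and Pdx1 also ran from replicate 2 to 4, but with 3 before 1. Within the wild-type group the order by Nepn was the reverse of that by Sox9. These orders rest on 4 arrays each and were seen after the values.

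Of the other 9 members, 8 had a log2 difference above 0 and Prelp was below 0, and the median of the 9 was 0.67. Over all genes tested the median was 0.02, and 52.9% lay above 0. Counting all 10 members, the median was 0.56. Past the threshold of 0.05 in limma stood 2 of 10 members, Nepn lower and Ogn higher. Among all genes 5.37% passed it (994 of 18506), 1.55% as higher and 3.82% as lower in mutant samples. The groups did not overlap in 4 of 10 members, Nepn with the mutant arrays below and Ogn, Dcn and Lum with them above, against 15.2% of all genes in either direction. The family was picked on this contrast, so that these counts test nothing and nothing is read from them. The count of 2 was 0 without wild-type replicate 4 or mutant replicate 1, stayed at 2 without mutant replicate 4 and was 1 without any other single array. The 1 member left was Aspn without wild-type replicate 3 and Nepn in the other cases. With quantile normalization the count stayed at 2, but with Aspn in place of Ogn. It was 3, with Dcn added, with slide as a block, with slide as a random block and in the authors' deposited table.

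**Figure D1:**
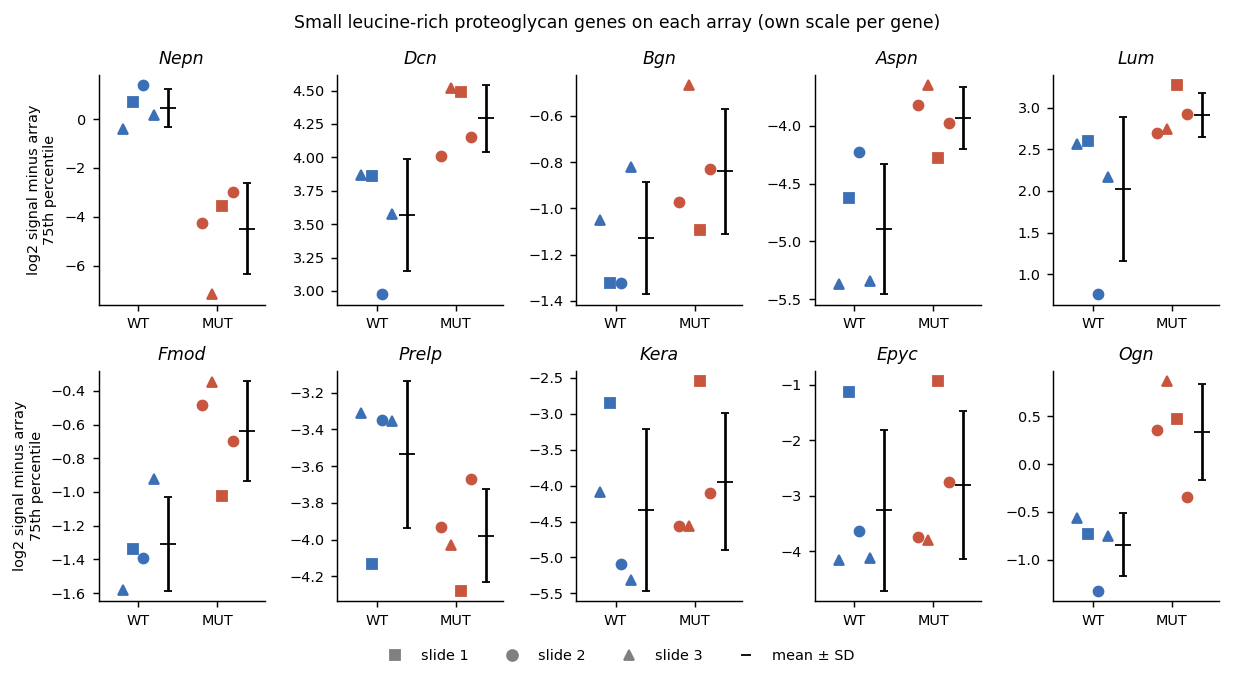
Log2 signal of each of the 10 genes on each array, minus the 75th percentile of the array, for wild-type (WT, blue) and mutant (MUT, red) samples, with a scale of its own for each gene. Marker shapes give the slide, and bars give mean ± SD of 4 arrays. The mutant arrays lie below all wild-type arrays in Nepn and above them in Ogn, Dcn and Lum, and the slide 1 arrays stand apart in Epyc and Kera.

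Among the class I genes, Dcn encodes decorin, which binds type I collagen and TGF-beta. Its log2 values were 3.87, 3.86, 2.98 and 3.58 in wild-type and 4.01, 4.52, 4.49 and 4.16 in mutant samples. The groups did not overlap, and wild-type replicate 3 was the lowest array. Mutant samples were higher by 0.72 (SE 0.225), or 1.65-fold, with within-slide values of 0.62, 1.11 and 0.79 and a value of 0.86 with slide as a block. A second Dcn probe was not well above background on any array.

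Bgn encodes biglycan, the closest relative of decorin, which can also signal through toll-like receptors. It was at -1.05, -1.32, -1.32 and -0.82 in wild-type and at -0.97, -0.47, -1.09 and -0.83 in mutant samples. The groups overlapped, since wild-type replicate 4 lay above 3 of the 4 mutant arrays. The means differed by 0.29 (SE 0.177). Aspn encodes asporin, an aspartate-rich member that binds collagen and TGF-beta. Its values of -5.37, -4.62, -4.23 and -5.35 in wild-type and -3.82, -3.65, -4.28 and -3.98 in mutant samples came from a dim probe, well above background on 2 wild-type and 3 mutant arrays. The log2 difference was 0.96 (SE 0.280) from the processed signal, 0.35 in the authors' deposited table and 0.29 with the normexp correction.

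Among the class II genes, Lum encodes lumican, a keratan sulfate proteoglycan of the cornea and of many connective tissues. Its values were 2.56, 2.60, 0.76 and 2.16 in wild-type and 2.70, 2.75, 3.27 and 2.93 in mutant samples. All mutant arrays lay above all wild-type arrays, and wild-type replicate 3 lay far below the rest. On the log2 scale the groups differed by 0.89 (SE 0.394), 1.85-fold higher in mutant samples, and without wild-type replicate 3 it was 0.47. Within slides 1, 2 and 3 it was 0.67, 2.05 and 0.38.

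Fmod encodes fibromodulin, which guides collagen fibril assembly in tendon and other tissues. It was at -1.58, -1.34, -1.39 and -0.92 in wild-type and at -0.49, -0.35, -1.03 and -0.70 in mutant samples. One pair of arrays overlapped, wild-type replicate 4 lying above mutant replicate 3. The mutant mean was higher by 0.67 (SE 0.192), or 1.59-fold, with within-slide values of 0.31, 0.80 and 0.91.

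Prelp encodes a proline- and arginine-rich member that binds collagen and heparan sulfate. Its brighter probe was at -3.31, -4.13, -3.35 and -3.35 in wild-type and at -3.93, -4.03, -4.28 and -3.67 in mutant samples. The groups overlapped through wild-type replicate 2 alone, which lay below 3 of the 4 mutant arrays. In a fit of all single probes the log2 difference was -0.44 (SE 0.231) by this probe and 0.13 (SE 0.661) by the dimmer probe, which was well above background on 2 arrays of each genotype. In the authors' deposited table it was -0.04, so that no direction was settled for Prelp.

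The class III gene Ogn encodes osteoglycin, also called mimecan, a small proteoglycan of bone, cornea and other mesenchymal tissues. Its processed signal was 251.1, 374.5, 210.4 and 380.4 in wild-type and 788.3, 952.0, 572.9 and 492.1 in mutant samples. On the log2 scale the values were -0.57, -0.73, -1.32 and -0.75 in wild-type and 0.36, 0.87, 0.47 and -0.34 in mutant samples. All mutant arrays lay above all wild-type arrays, with mutant replicate 4 nearest to them. The means were -0.84 ± 0.33 and 0.34 ± 0.50 (SD, n = 4 each). The log2 difference was 1.18 (SE 0.271), 2.27-fold higher, the 88th highest among all genes tested. It was 1.20, 1.33 and 1.53 within the slides and from 1.004 to 1.41 on leaving out single arrays.

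Wild-type replicate 3 was at once the highest array for Nepn and the lowest for Dcn, Lum and Ogn. The summed level of a list of collagens and collagen partners, as multiples of the 75th percentile, was also lowest there, 281 against 332 to 388 on the other wild-type arrays. So was that of endothelium markers, at 42.9. The sums of mesenchyme markers (146, against 141 on replicate 4), mesothelium markers (5.40, against 4.34 on replicate 1) and macrophage markers (19.6, against 18.7 on replicate 1) were not lowest there.

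**Figure D2:**
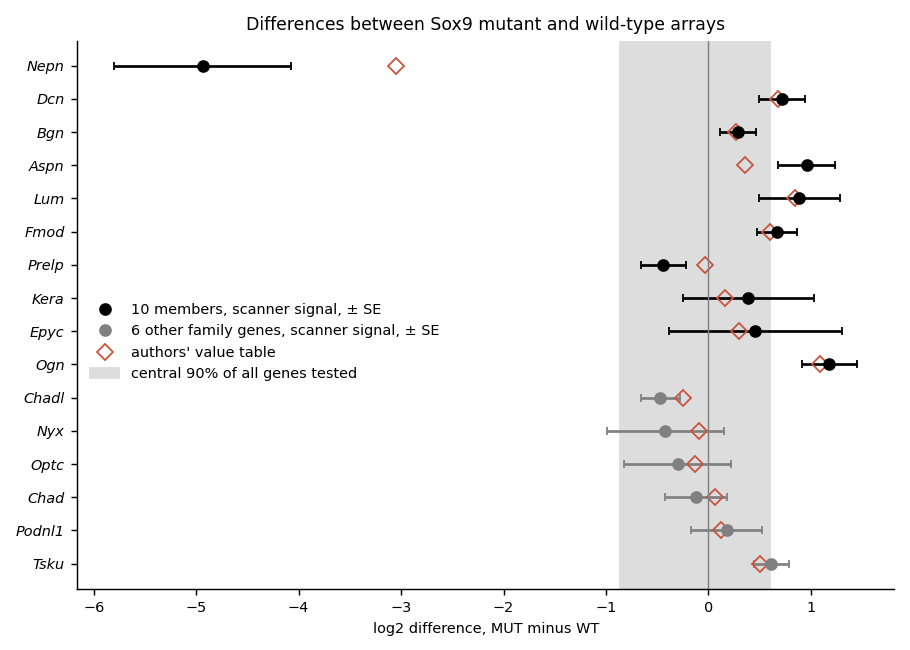
Log2 difference, mutant minus wild-type, with its standard error for the 10 members (black) and for 6 other family genes (grey), beside the authors' value table (open diamonds). The grey band holds the central 90% of all genes tested by the scanner signal, from -0.86 to 0.60. By that signal Nepn lies far to the left of the band at -4.94. Ogn, Aspn, Lum, Dcn and Fmod lie to the right of it by the scanner signal. In the authors' table, for which no band is drawn, Nepn was at -3.05.

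In Kera and Epyc the arrays of slide 1 stood apart, and the genotypes overlapped. Kera encodes keratocan, a keratan sulfate proteoglycan of the cornea, and Epyc encodes epiphycan, a class III member of growth plate cartilage. Epyc was at -4.16, -1.12, -3.63 and -4.12 in wild-type and at -3.74, -3.79, -0.94 and -2.75 in mutant samples. Wild-type replicate 2 and mutant replicate 3, the pair on slide 1, were the highest array of each group, and the groups overlapped widely. The difference between genotypes was 0.46 (SE 0.844), and it ran from -0.17 to 1.17 on leaving out single arrays. Kera was at -4.09, -2.85, -5.09 and -5.31 in wild-type and at -4.56, -4.56, -2.55 and -4.11 in mutant samples. The same pair of arrays was highest, and the genotypes differed by 0.39 (SE 0.636), from -0.08 to 0.89 on leaving out single arrays.

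On slide 1, Epyc was 2.67 higher on the log2 scale than on the other 6 arrays, which is 6.37-fold, and Kera was 1.92 higher, which is 3.79-fold. The Kera probe was well above background on 2 wild-type and 4 mutant arrays. Its processed signals outside slide 1 ran from 15.5 to 36.3, so that the size for Kera is uncertain. The 2 arrays of slide 1 lay above all 6 others in both genes, a pattern seen after the values. Over all genes, 1.25% had both slide 1 arrays above all others and 6.17% had both below. A second Epyc probe was well above background only on the slide 1 arrays, with processed signals of 71.7 and 57.6 there. By the smallest root mean square difference of log2 values after centring on each gene's mean over the 8 arrays, the gene nearest to Epyc was Kera, at 0.55, followed by Nr2f1 at 0.82 and Dkk1 at 0.83. Prelp lay the other way, with both slide 1 arrays between -4.28 and -4.13 and the others between -4.03 and -3.31. The labels give no difference between the slides beyond their number, and the part of embryos, dissection or slide in this pattern was not tested.

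**Figure D3:**
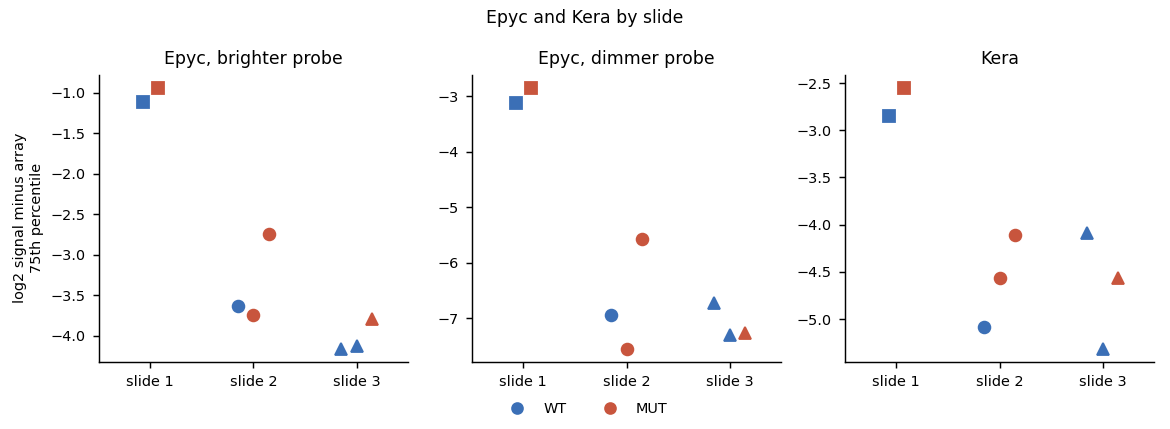
Log2 signal minus the 75th percentile of the array for the brighter and the dimmer probe of Epyc and for the Kera probe, by slide, with wild-type arrays in blue and mutant arrays in red. The wild-type and the mutant array of slide 1 lie together above the 6 arrays of slides 2 and 3 in all 3 panels.

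In the order of genes on chromosome 10 in RefSeq, Dcn, Lum, Kera and Epyc are direct neighbours. In Dcn and Lum the genotypes did not overlap, as in 15.2% of all genes, and neither gene passed the threshold in limma. In Kera and Epyc the slide 1 arrays lay above all others, as in 1.25% of all genes. The 2 patterns were not wholly apart. Within each genotype Lum was also highest on the slide 1 array, at 2.60 in wild-type and 3.27 in mutant samples. The next arrays were at 2.56 in wild-type and 2.93 in mutant samples. The mean of Lum on slide 1 was 0.63 above that of the other 6 arrays, which include the low wild-type replicate 3 at 0.76. Nepn lies elsewhere on chromosome 10, between Gopc and Nus1. Aspn and Ogn lie together on chromosome 13 with Ecm2 and Omd, and Prelp and Fmod lie together on chromosome 1 beside Optc. Bgn lies on the X chromosome, between Haus7 and Atp2b3.

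The genes whose values over the 8 arrays were most like those of Nepn were taken by the same measure of likeness. The 10 nearest were Fmo2, Slc28a3, Nkx6-1, Clps, Kirrel2, Tmem171, a transcript named BI793804, a transcript named ENSMUST00000070378, Cldn10 and Elapor1, at root mean square differences between 0.94 and 1.27. In all 10 the mutant arrays lay below all wild-type arrays, with log2 differences between -4.45 (Tmem171) and -2.67 (BI793804). The likeness to Nepn fixes these directions, so that they are a description with no test. In the mutant samples the probe of ENSMUST00000070378 was well above background on 0 arrays, and those of Fmo2, Kirrel2 and BI793804 on 2 arrays each, so that their sizes are uncertain. Nkx6-1 encodes a transcription factor of pancreatic progenitors and beta cells (-3.66), Clps the pancreatic colipase (-3.53) and Cldn10 a tight junction claudin (-3.44).

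**Figure D4:**
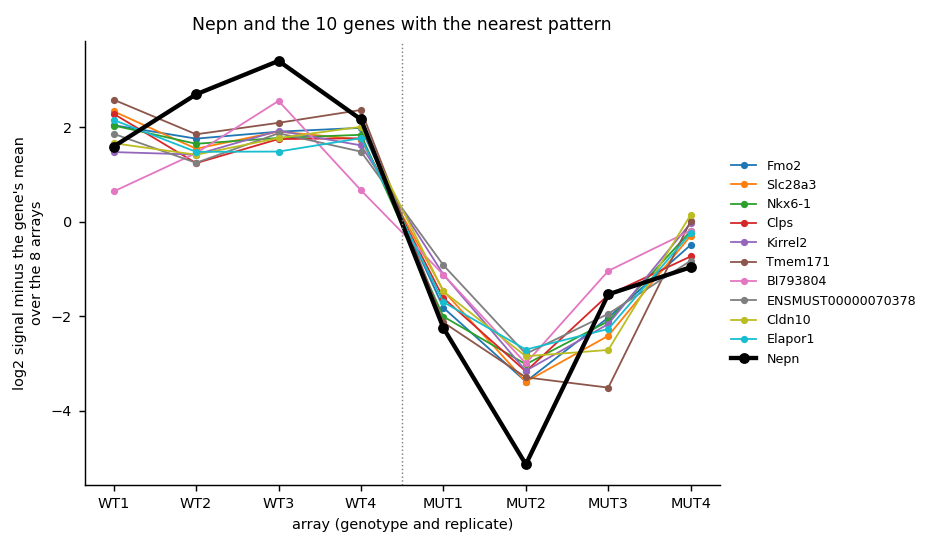
Log2 signal minus each gene's mean over the 8 arrays for Nepn (thick black) and the 10 genes of the nearest pattern, with wild-type arrays to the left of the dotted line. Lines join the values of 1 gene and carry no order of the arrays. All 11 genes are above their mean on the wild-type arrays, and Nepn runs lowest on mutant replicate 2.

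Of 9 further genes of the family on the array, 6 were tested and 0 passed the threshold in limma. Tsku, a secreted member that modulates several growth factor pathways, came nearest at 0.61 (SE 0.171, adjusted p = 0.0826 in limma) for mutant minus wild-type on the log2 scale. Podnl1 was at 0.18, Chad, the cartilage matrix member chondroadherin, at -0.12, and Optc, a member of the vitreous of the eye, at -0.30. Nyx, a member of the retina, was at -0.42 and Chadl, listed under an older clone name, at -0.47, and each of these 5 had an adjusted p of at least 0.223. Omd, Podn and Ecm2 did not pass the filter on dim signals.

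Across 6 lists of related genes, 15 of 109 genes tested passed the threshold, 11 higher and 4 lower in mutant samples, which is 13.8% against 5.37% of all genes. The lists were chosen with earlier results of these data known, so that these shares are a description and no test. The median difference of the 109 was 0.31. The count changed with single arrays. Leaving out wild-type replicate 1, 2, 3 or 4 left 1, 2, 4 and 2 genes, and leaving out mutant replicate 1, 2, 3 or 4 left 1, 4, 6 and 11. Acan was the exception and passed on leaving out each of the 8 arrays, and without both arrays of slide 1 its adjusted p was 0.0502 in limma. Over all 18506 genes, 506, 657, 495 and 395 passed without wild-type replicate 1, 2, 3 or 4. Without mutant replicate 1, 2, 3 or 4 it was 412, 449, 709 and 971. The share of related genes was below that of all genes without wild-type replicate 1, 2 or 4 or mutant replicate 1. It was above that of all genes without each other single array.

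Among the large proteoglycans and the cell surface proteoglycans, 2 of 21 genes tested rose and 2 fell, with a median of 0.13. Acan, which encodes aggrecan, the large chondroitin sulfate proteoglycan of cartilage, was at 0.06, -0.61, -0.26 and -0.20 in wild-type and at -2.56, -2.54, -2.79 and -1.44 in mutant samples. The mutant arrays lay clearly below, and Acan was 4.22-fold lower (log2 -2.08, SE 0.296, adjusted p = 0.00975 in limma). Hapln1, whose product links aggrecan to hyaluronan, fell by 0.64 (SE 0.15, adjusted p = 0.0480 in limma). Cspg4, which encodes the NG2 proteoglycan of pericytes and progenitor cells, rose by 0.69 (SE 0.144, adjusted p = 0.0332 in limma). The syndecan gene Sdc3 rose by 0.45 (SE 0.104, adjusted p = 0.0453 in limma).

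Acan and Hapln1 also belong to a list of cartilage genes, of which 6 of 12 tested fell and 0 rose, with a median of -0.67. The others that fell were Mia (-4.19), Col9a1 (-2.58), Col9a3 (-2.41) and Col11a2 (-2.07), which encode a secreted cartilage protein and cartilage collagen chains. Col2a1, the main cartilage collagen gene, was at -0.12 (adjusted p = 0.869 in limma). Matn1, Matn3, Cnmd and Sox5 of this list did not pass the filter on dim signals. The summed level of the cartilage list was 24.8 to 28.0 in wild-type and 19.4 to 22.9 in mutant samples.

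Among enzymes that build and sulfate the sugar chains, 3 of 26 genes tested rose and 2 fell, with a median of 0.31. Chst5 and Chst2 encode sulfotransferases that act on N-acetylglucosamine, as in keratan sulfate. Their log2 differences were -1.52 (SE 0.359, adjusted p = 0.0496 in limma) and -1.12 (SE 0.223, adjusted p = 0.0288 in limma). The Chst5 probe was well above background on 4 wild-type and 2 mutant arrays. In the authors' deposited table the difference of Chst5 was -0.29, so that its size is uncertain. Chsy3, listed under an older clone name, encodes a chondroitin synthase and rose by 0.72 (SE 0.168, adjusted p = 0.0478 in limma). Chst1, which encodes a keratan sulfate sulfotransferase, rose by 0.53 (SE 0.123, adjusted p = 0.0462 in limma). Chst7, the other gene that rose, was at 0.52.

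Among fibrillar collagens and other matrix partners of the family, 4 of 23 genes tested rose and 0 fell, and the median was 0.59. Lox, which encodes the enzyme that cross-links collagen and elastin, rose by 1.15 (SE 0.228, adjusted p = 0.0280 in limma). Tnc, which encodes tenascin C, rose by 0.89 (SE 0.174, adjusted p = 0.0263 in limma). The fibrillar collagen gene Col5a2 rose by 0.58 (SE 0.114, adjusted p = 0.0263 in limma). Col1a2 rose by 0.67 (SE 0.151, adjusted p = 0.0430 in limma), but its kept probes disagreed in sign.

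Of the TGF-beta genes, 2 of 21 tested rose and 0 fell, with a median of 0.32. The 2 encode latent TGF-beta binding proteins, which hold the growth factor in the matrix, Ltbp4 at 0.74 (SE 0.149, adjusted p = 0.0291 in limma) and Ltbp3 at 0.55 (SE 0.124, adjusted p = 0.0425 in limma). The ligand genes Tgfb1 (0.56, adjusted p = 0.0550 in limma) and Tgfb3 (0.85, adjusted p = 0.0589 in limma) missed the threshold. The inhibitory Smad7 was at 0.43 (adjusted p = 0.653 in limma). Of 12 genes for receptors of family members, among them Tlr2, Tlr4, Egfr and Lrp1, 0 passed the threshold in limma, and the median was 0.31.

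**Figure D5:**
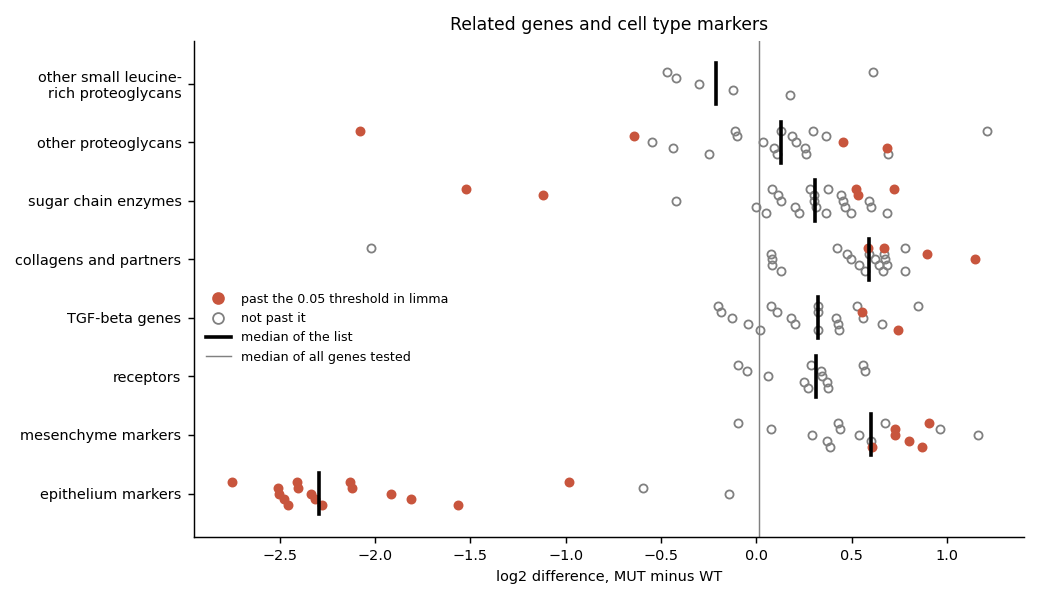
Log2 difference, mutant minus wild-type, of each gene tested in 6 lists of related genes and in the lists of mesenchyme and epithelium markers. Filled points passed the threshold of 0.05 in limma, open points did not, black bars are list medians and the grey line is the median of all genes. The medians of the mesenchyme markers and of the collagens and partners, 0.60 and 0.59, lie close together, and the epithelium markers lie at -2.30.

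Markers of cell types moved with the same split of the samples. The tissue is labelled epithelium, and all 18 epithelium markers and all 18 mesenchyme markers passed the filter on dim signals. Epithelium markers fell in 16 of 18 genes with a median of -2.30, and their summed level was 106 to 147 in wild-type and 37.3 to 59.7 in mutant samples. Cdh1, the epithelial cadherin, was at 2.81, 2.82, 3.11 and 2.82 in wild-type and at 0.51, -0.35, -0.27 and 1.64 in mutant samples. Pancreas progenitor genes fell in 10 of 12 and endoderm genes in 5 of 8 tested. In bulk samples fewer cells of a type and less RNA per cell cannot be told apart.

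Mesenchyme markers rose in 6 of 18 genes, 17 of the 18 lay above 0, and the median was 0.60. Their summed level was 141 to 155 in wild-type and 173 to 243 in mutant samples. Pdgfra, a receptor gene of fibroblasts, was at 1.39, 1.58, 1.17 and 1.52 in wild-type and at 2.10, 2.17, 2.63 and 1.96 in mutant samples. The summed levels of mesothelium markers (4.34 to 6.26 and 8.07 to 12.4), endothelium markers (42.9 to 47.1 and 52.6 to 79.9) and macrophage markers (18.7 to 22.6 and 27.7 to 37.8) were likewise higher on every mutant array than on any wild-type array. In these lists 2 of 7, 2 of 12 and 4 of 12 genes tested rose and 0 fell, with medians of 0.80, 0.47 and 0.63. The median of the 9 members other than Nepn, 0.67, lay among these medians. The part of the cell makeup of the samples in the differences of Nepn, Ogn, Dcn, Lum and the other members was not tested.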

How the data were processed

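RNA of 4 wild-type and 4 mutant samples was measured on single-colour Agilent arrays. Per the file headers, the deposited scanner files came from Agilent Feature Extraction 9.5.3.1. Their processed signal, a linear intensity, had its background removed by the authors' scanner software and was not normalized between arrays, and the mean signal and local background are deposited intensity values as scanned. The deposited control and quality columns are flags (a unit called other here). For comparison, the authors' value table holds intensity values for 33067 features with a median of 227 on every array. Its values follow the scanner's mean signal in rank (at least 0.999), are not centred and have no direction of their own. The submitters' processing notes name limma without a version, and the background method behind that table is not given in the sources used here. The scanner files give probe positions on mm8.

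Control spots (1639 of 45018) and spots marked as outliers were left out, log2 was taken, and each array's 75th percentile was subtracted. Spots of a probe were averaged. Of 41174 probes, 27389 were kept because they were well above background on at least 4 arrays. A gene was represented by its kept probe of highest mean, and 9 genes had a missing value. Probes were named through RefSeq accessions (23374), through a like-named probe (4500) or as in the file (13300). Genotypes were compared in limma 3.58.1 under R 4.3.3 by lmFit and eBayes, without a slide term. The test was two-sided and p was adjusted over 18506 genes by Benjamini-Hochberg, and the code was tested on simulated data. Adjusted p-values in the text are from this fit. A summed level adds the linear signals of a list's genes as multiples of the 75th percentile. The number of arrays limits the precision.

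The members and gene lists were chosen with earlier results of these data known. Named are all 10 members, all other family genes, up to 4 genes past the threshold with the largest difference in each related list and the genes that define a list, and the 10 genes nearest to Nepn. Tgfb1, Tgfb3, Smad7, Chst7, Col11a2, Ddx3y, Nr2f1, Dkk1, Grhl2, Nkx2-2, Foxa2 and Pdx1 were named after their values were seen. Alternatives were other background corrections and normalizations, filters, slide and replicate terms, array weights and single arrays left out. Other tools were Python 3.11.15, pandas 2.3.3, numpy 2.4.6, matplotlib 3.10.9 and data.table (R, version 1.17.8).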

Additional observations from a re-analysis of the deposited data

Results flagged for a closer look

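In Prelp, the wild-type array of replicate 2 lay far below the other wild-type arrays, at -4.13 against -3.35 for the nearest of them, a gap of 0.946 of the group's range, which is past Dixon's limit for 4 samples. It was 1 of 60 groups of 4 arrays examined over 30 genes, and chance alone marks about 1 in 20 such groups. The array lay on slide 1 and is the one through which the genotypes overlapped in Prelp.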

How the results depend on the processing

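Of 20 alternatives, 1 of them, leaving out slide 1, was chosen after seeing the data. The 994 genes past the threshold became 419 with no filter on dim probes, 1536 with slide as a random block, 1697 with array weights, 199 without slide 1 and from 395 to 971 on leaving out single arrays. The split of 287 higher and 707 lower was 524 and 732 in the authors' value table and 344 and 615 with normexp. The 15 related genes became 1 with no filter, 8 with the mean of kept probes, 29 with the random slide block, 30 with array weights, 1 without slide 1 and from 1 to 11 without single arrays. The 2 members past the threshold became 1 with no filter, 1 of 6 with the filter on all 8 arrays, 3 with slide as a block or random block and in the authors' table, 4 with array weights, 0 without slide 1 and from 0 to 2 without single arrays. With a replicate block the counts were 340 genes, 1 related gene and 0 members. The labels do not say whether same-numbered samples form pairs. The deviations of same-numbered arrays from their group means correlated at -0.354, -0.295, -0.00485 and 0.0875. Deviations from means of 4 arrays cannot settle whether the samples were paired. Over the 14 related genes past the threshold that were named by rule, without Chst7, the call was lost in 154 of 279 comparisons and the sign turned in 0. With normexp and in the authors' table, Nepn moved to -2.85 and -3.05 and Aspn to 0.29 and 0.35, and Prelp to -0.13 (normexp), -0.16 (mean of kept probes) and -0.04 (authors' table). Kera and Epyc, which passed no threshold, turned sign without mutant replicate 3, and Epyc also with array weights (-0.26). Dim probes (Aspn, Prelp, Kera and Nepn in the mutants) limit what these arrays show.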
